A study of Arabidopsis thaliana with 41 samples.

Results

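The 42 histone genes of Arabidopsis thaliana described here were followed in developing embryos of the val1 mutant and of wild type (WT). They were chosen by locus identifier from the deposited expression table, in which 33544 genes could be summed, and comprise 8 H4, 5 H3.1, 3 H3.3, 4 canonical H2A, 2 H2A.X, 3 H2A.W, 3 H2A.Z, 11 H2B and 3 H1 genes. Embryos of both genotypes were dissected from seeds 7, 8, 10, 12, 13, 15 and 17 days old, and their RNA was sequenced. VAL1 (AT2G30470) encodes a B3-domain repressor of the seed maturation programme. Each of the 14 groups had 3 libraries, except WT at day 17 with 2, which makes 41 libraries. The labels name neither the mutant allele nor the number of plants behind a library, and the design text speaks of both biological and technical replicates, so p-values measure the spread between the libraries of a group.

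Histones package DNA into nucleosomes, with H2A, H2B, H3 and H4 in the core and H1 on the linker. Genes for H4, H3.1 and most canonical H2A and H2B are transcribed mainly in S phase, when chromatin is assembled on new DNA. H3.3 is deposited independently of replication, H2A.Z is exchanged into nucleosomes near gene starts, H2A.X is phosphorylated at DNA breaks, and H2A.W marks plant heterochromatin.

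VAL1 transcript, a check of the labels, was at 1.4 ± 0.646 scaled FPKM in val1 and 11.4 ± 1.51 in WT at day 7, and at 2.55 ± 0.558 in val1 (n = 3) and 6.09 ± 0.494 in WT (n = 2) at day 17 (means ± SD). Library depth was estimated from the steps of the deposited values, as reads or read pairs assigned to the listed transcripts. It ran from 8321306 to 51738641 with a median of 29731894, and libraries of a group correlated at 0.968 to 0.991. The 3 embryo markers LEC1, CRU3 and OLEO1 summed to 452 to 334731 scaled FPKM in val1 libraries and 300.0 to 376249 in WT libraries. Of 7 endosperm markers, EPR1 carried most of the signal after day 8, with means of 2.35, 2.97, 15, 50.8, 41.9, 59.5 and 79.3 over the 7 ages in val1 and 1.18, 2.13, 21.7, 126, 99.7, 158 and 40.6 in WT. The other 6 (AGL62, PHE1, FIS2, ZOU, ALE1 and FWA) summed to at most 10.1 in val1 and 4.42 in WT at day 7, and to at most 0.339 in val1 and 0.53 in WT from day 10 on. The 6 seed coat markers summed to at most 16 in val1 and 16.7 in WT at day 7, and to at most 2.09 in val1 and 2.9 in WT from day 10 on. Apart from EPR1, whose means were higher from day 10 on, these marker sums were lower from day 10 on, as most histone genes were, and the part of either in the results was not tested.

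All 42 genes passed the filter on low values. Levels below are scaled FPKM, that is FPKM divided by a factor for each library from trimmed log ratios, as mean ± SD and with n = 3 unless stated. Each difference is one of log2(scaled FPKM + 0.5), a scale on which the change of a low gene is understated. It is given with its standard error (SE) and with limma's p after Benjamini-Hochberg adjustment over 18389 genes. A gene is called where that p is below 0.05. Scaling matters for age: without it the median of all genes was -0.98 in val1 and -1.07 in WT from day 7 to day 12, against -0.01 in each genotype with it, so changes with age are relative to the typical gene. Without scaling the median val1 minus WT difference of all genes was also shifted, to -0.24 at day 17 and 0.11 at day 15. In embryo RNA, fewer cells of a type and less RNA per cell cannot be told apart.

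The H3.1 protein differs at few residues from the H3.3 protein of AT4G40040, and short coding stretches show where. All 5 H3.1 genes encode 1 identical protein from 5 distinct coding sequences. From AT5G65360 (H3.1) to AT4G40040 (H3.3), counted from 1 after the initiator methionine, the substitutions are A31T, F41Y, S87H and A90L. The stretches are from RefSeq, assembly TAIR10.1, with the codons of the substituted residues in capitals; other codons differ without a change of residue. With the longest annotated protein of each gene, H3.3 proteins have 136 to 164 residues and 80.5 to 97.1% identity to H3.1. Coding identity between H3.1 and H3.3 genes is at most 81.4%, and no 75-base window is shared between the classes.
AT5G65360, codons 27 to 36: aaatcagctccgGCGaccggaggagtaaag
AT4G40040, codons 27 to 36: aagtctgcaccaACCactggaggagtcaag
AT5G65360, codons 84 to 93: ttccagagcAGCgccgtcGCAgcacttcag
AT4G40040, codons 84 to 93: ttccagagcCATgctgtgCTTgcactccag

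The sequences around the annotated starts differ by class as well. The plant histone octamer, CGCGGATC on either strand, lay between 250 bases before and 50 bases after the annotated start of 10 of the 42 genes, namely 3 H3.1, 2 H4, 2 H2A, 1 H3.3, 1 H2A.W and 1 H1 gene. The same letters were in 0.146% of the windows of 27443 protein-coding genes. The hexamer ACGTCA was in 9 of 11 H2B windows and in 13 of the 42, against 9.19% of all windows. The G-box CACGTG, a core bound by bZIP and bHLH factors, was in 6 windows (AT1G08170, AT3G27360, HIS1-3, HTA7, AT3G09480 and AT5G02570), against 7.68% of all. In HIS1-3 and AT3G09480 it lay after the annotated start, and in the others before it. The RY core CATGCA, bound by B3 factors such as VAL1 and ABI3, was in 2 (AT5G59970 and HTA2), against 9.72% of all. The letters TTTCCCGC, an E2F site, and the nonamer CATCCAACG were in 0 of the 42 windows, and in 0.798% and 0.171% of all. No matches of different motifs overlapped in a window of the 42. A match describes letters, not a bound site.

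Shown are the bases directly before the annotated start of an H4 and an H3.1 gene that carry the octamer and fall with age, of 2 H2B genes that carry the hexamer and are lower in val1, and of AT1G08170 and AT3G27360, which carry the G-box and rise late. They are from TAIR10.1, 5′ to 3′ on the gene's strand, with octamer, hexamer and G-box letters in capitals.
AT5G59690 (H4), chr5:24051344-24051473, plus strand: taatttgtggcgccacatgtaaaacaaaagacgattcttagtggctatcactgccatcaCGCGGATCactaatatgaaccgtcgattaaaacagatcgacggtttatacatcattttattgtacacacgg
AT1G09200 (H3.1), chr1:2972335-2972464, minus strand: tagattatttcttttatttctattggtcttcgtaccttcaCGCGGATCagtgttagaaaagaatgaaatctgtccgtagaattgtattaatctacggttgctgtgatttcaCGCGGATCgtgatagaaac
AT2G28720 (H2B), chr2:12326678-12326807, plus strand: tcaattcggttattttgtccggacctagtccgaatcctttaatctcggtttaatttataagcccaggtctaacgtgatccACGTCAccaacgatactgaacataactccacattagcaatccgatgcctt
AT2G37470 (H2B), chr2:15736597-15736726, plus strand: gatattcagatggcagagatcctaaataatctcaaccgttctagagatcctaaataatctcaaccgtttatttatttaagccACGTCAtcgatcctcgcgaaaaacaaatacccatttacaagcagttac
AT1G08170 (H2B), chr1:2563707-2563836, minus strand: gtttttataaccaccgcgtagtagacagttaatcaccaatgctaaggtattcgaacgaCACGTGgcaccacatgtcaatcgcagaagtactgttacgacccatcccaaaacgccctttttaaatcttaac
AT3G27360 (H3.1), chr3:10129938-10130137, minus strand: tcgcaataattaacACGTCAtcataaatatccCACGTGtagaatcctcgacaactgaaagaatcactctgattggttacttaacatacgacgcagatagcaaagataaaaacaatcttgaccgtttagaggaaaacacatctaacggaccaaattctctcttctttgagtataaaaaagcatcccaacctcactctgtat

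The first comparison follows histone transcripts as embryos grow. From day 7 to day 12, 35 of the 42 genes fell in each genotype, and these were the same 35 genes. Over all genes tested, 74.4% changed in val1 and 74.8% in WT, and 38.3% fell in val1 and 38.6% in WT. Of the other members, 5 rose in val1 and 4 in WT, and 3 of these rose in both (AT4G40040, HTA1 and AT1G08170), where 36.2% of all genes rose in each genotype. The median change of the 42 genes was -2.42 in val1 and -2.59 in WT. Without scaling, 39 fell and 0 rose in val1, and 39 fell and 2 rose in WT. Most of the drop lay between neighbouring ages: in 36 of 42 genes every day 10 library lay below every day 8 library, in val1 and in WT. The median log2 ratio of the day 10 mean to the day 8 mean was -1.73 in val1 and -1.84 in WT.

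**Figure D1:**
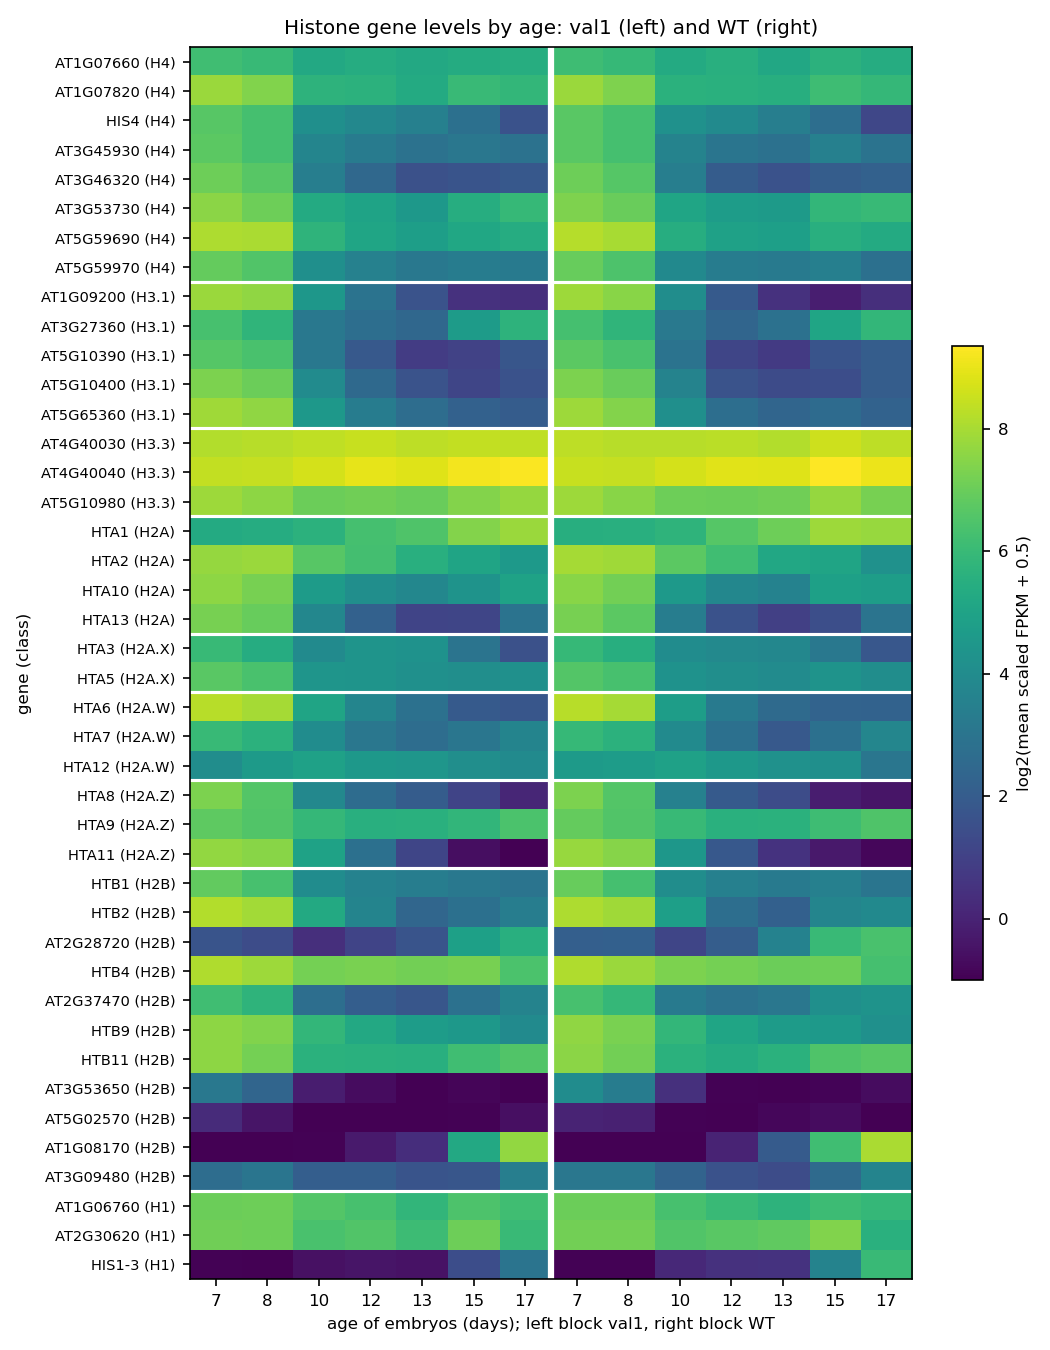
Mean level of the 42 histone genes on the log2(scaled FPKM + 0.5) scale, one row per gene grouped by class and one column per age in days, with val1 left of WT. In 36 of 42 rows every day 10 library lies below every day 8 library, while AT1G08170 and HIS1-3 stay low until day 12.

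The 8 H4 genes encode 1 identical protein of 103 residues from 8 distinct coding sequences, and their transcripts fell to different depths. Their summed level at days 7, 8, 10, 12, 13, 15 and 17 was 1214, 973, 238, 196, 157, 212 and 224 scaled FPKM in val1, and 1212, 954, 219.6, 185, 162, 253 and 224 in WT. All 8 fell by day 12 in both genotypes, with a median of -2.89 in val1 and -2.98 in WT. AT3G46320 fell by 4.56 (SE 0.24) in val1 and by 5.06 (SE 0.24) in WT, and AT1G07660 by 0.73 (SE 0.18) in val1 and by 0.63 (SE 0.18) in WT, which are the extremes of the class.
The make-up of H4 message changed accordingly. AT1G07660 made up 21.4 ± 1.54% of summed H4 at day 12 and 5.86 ± 0.197% at day 7 in val1, and 24.5 ± 2.34% at day 12 and 5.8 ± 0.414% at day 7 in WT. AT3G46320 made up 2.6 ± 0.463% at day 12 and 11 ± 0.666% at day 7 in val1, and 1.92 ± 0.483% at day 12 and 10.9 ± 0.372% at day 7 in WT. After day 12, AT3G53730 rose by 0.91 (SE 0.20) in val1 and 1.26 (SE 0.22) in WT, and HIS4 (AT2G28740) fell by 2.22 (SE 0.24) in val1 and 2.89 (SE 0.26) in WT. Read-length stretches limit the split within H4: 81.3% of the 75-base windows of AT3G45930 and 79.6% of those of AT3G46320 are in no other gene, and each shares the rest with the other. AT1G07660 and AT1G07820 likewise share windows, with 83.8% and 88.4% in no other gene.

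H3.1 fell far more than H3.3. AT1G09200 (chr1:2971571-2972334) had 4.36, 5.98 and 10.9 scaled FPKM at day 12 and 207, 271 and 196 at day 7 in val1, and 3.13, 4.39 and 2.54 at day 12 and 268, 255 and 165 at day 7 in WT. The libraries of the ages did not overlap in either genotype. The change was -4.97 (SE 0.29, adjusted p = 3.45e-16) in val1 and -5.90 (SE 0.29, adjusted p = 3.64e-18) in WT. The other 4 H3.1 genes fell too, by 3.58 to 4.77 in val1 and by 3.89 to 5.67 in WT.
AT3G27360 (chr3:10129105-10129937) was the H3.1 gene that rose again in both genotypes. It had 38.5, 53.8 and 59.5 scaled FPKM at day 17 and 7.17, 4.88 and 6.57 at day 12 in val1, and 56.8 and 58.7 at day 17 and 3.72, 5.07 and 5.45 at day 12 in WT. Every day 17 library stood above every day 12 library. The rise was 2.92 (SE 0.21, adjusted p = 9.54e-14) in val1 and 3.49 (SE 0.24, adjusted p = 2.81e-14) in WT. At day 17 it was 83.2 ± 4.56% of summed H3.1 in val1 and 82.4 ± 0.0431% (n = 2) in WT.
Its annotation overlaps SDH2-1, a succinate dehydrogenase subunit gene, by 328 bases on the same strand, and 66.5% of its 75-base windows are in no other gene. SDH2-1 averaged 24.2 at day 17 and 19.3 at day 12 in val1, and 22.7 at day 17 and 25.4 at day 12 in WT. After day 12 AT1G09200, AT5G10400 and AT5G65360 fell further in val1. In WT AT1G09200 fell further and AT5G10390 rose by 0.88 (SE 0.28).

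The 3 H3.3 genes stayed high. Their summed level was 857, 847, 869, 991, 896, 1083 and 1163 scaled FPKM over the 7 ages in val1, and 908, 837, 842, 912, 884, 1241 and 990.1 in WT. AT4G40040 (chr4:18557149-18558945) had the highest mean of the 42 genes at each age in both genotypes. It had 467, 514 and 513 at day 12 and 353, 351 and 322 at day 7 in val1, and 469.9, 422 and 520.1 at day 12 and 370.4, 389 and 324 at day 7 in WT. Day 12 libraries lay above day 7 libraries in both genotypes. The change was 0.54 (SE 0.15, adjusted p = 0.00211) in val1 and 0.38 (SE 0.15, adjusted p = 0.0255) in WT. The WT call was lost without WT day 7 replicate 3, WT day 12 replicate 1 or the unnumbered WT day 12 library, with an adjusted p of up to 0.116, and with median of ratios scaling (adjusted p = 0.0593), and without scaling the WT change was -0.91. AT5G10980 fell by 0.72 (SE 0.15) in val1 and 0.81 (SE 0.15) in WT. The change of AT4G40030 was 0.33 (SE 0.15, adjusted p = 0.0441) in val1 and -0.02 (SE 0.15, adjusted p = 0.919) in WT. Without scaling no member was called as rising in val1, so the val1 rises of AT4G40040 and AT4G40030 were lost there.
As a share of summed H3.1 and H3.3, which does not depend on scaling, H3.1 was 3.07 ± 0.867% at day 12 and 47.9 ± 2.77% at day 7 in val1, and 2.02 ± 0.36% at day 12 and 46.6 ± 2.55% at day 7 in WT. Its lowest mean was at day 13, and at day 17 it was 4.98 ± 0.932% in val1 and 6.63 ± 0.563% (n = 2) in WT.

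**Figure D2:**
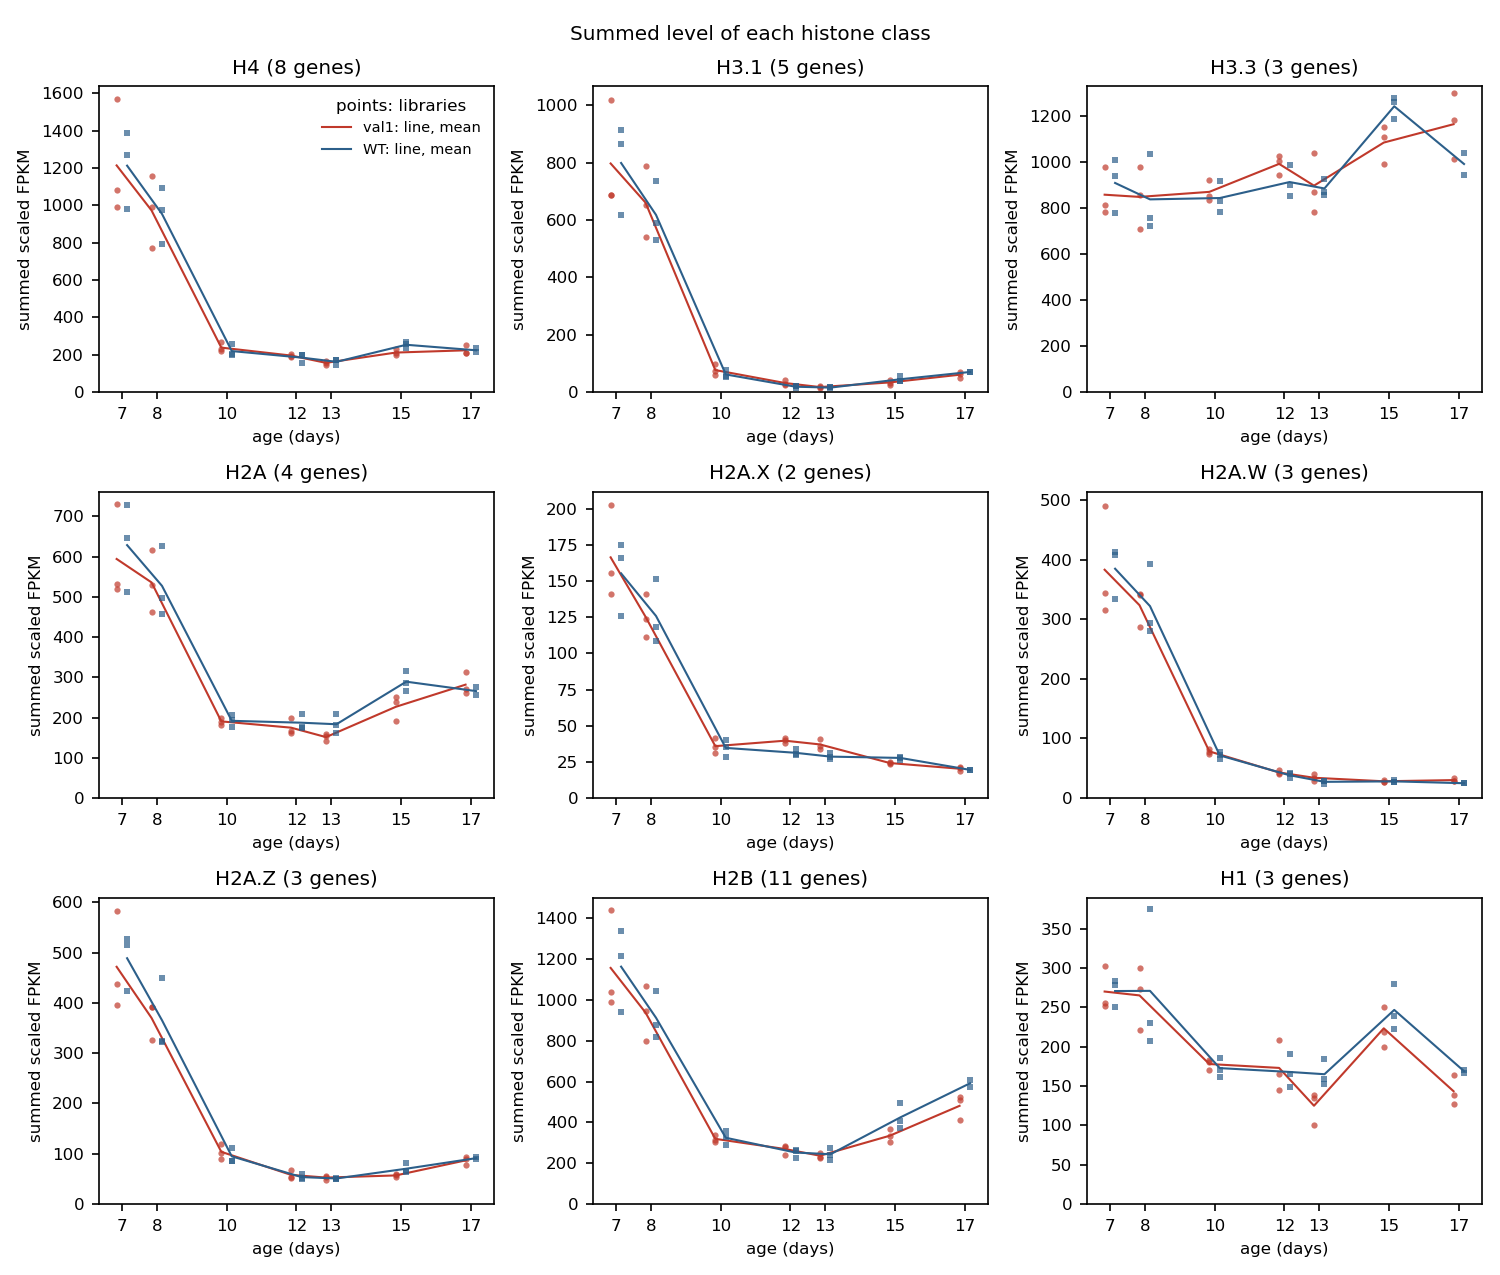
Summed scaled FPKM of each histone class against age in days, val1 as red circles and WT as blue squares, points for libraries and lines for group means, with vertical axes that start at 0 and differ between panels. H4 and H3.1 drop between days 8 and 10, H3.3 does not, and H2B rises again by day 17.

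Within the H2A family the genes moved in opposite directions. HTA1 (AT5G54640, chr5:22196287-22197492), a canonical H2A known for its role in Agrobacterium transformation, rose while the other canonical H2A genes fell. It had 77.4, 74.1 and 82.1 scaled FPKM at day 12 and 36.1, 47.6 and 34.1 at day 7 in val1, and 98.1, 90.6 and 107 at day 12 and 46, 51.2 and 37.1 at day 7 in WT. The ages did not overlap. The change was 0.99 (SE 0.16, adjusted p = 1.48e-06) in val1 and 1.14 (SE 0.16, adjusted p = 1.32e-07) in WT, and by day 17 it rose by a further 1.49 (SE 0.16) in val1 and 1.12 (SE 0.18) in WT. Without scaling the first change was -0.16 in val1 and -0.14 in WT, so HTA1 rose relative to the typical gene and not in deposited FPKM. It made up 52.6 ± 1.13% of the 12 summed H2A-family genes at day 17 and 2.44 ± 0.166% at day 7 in val1, and 53.2 ± 0.493% (n = 2) at day 17 and 2.7 ± 0.0836% at day 7 in WT.
HTA13 fell by 5.12 (SE 0.30) in val1 and 5.63 (SE 0.30) in WT to day 12, and rose by 0.76 (SE 0.30) in val1 and 1.36 (SE 0.33) in WT after it. HTA10 fell and rose in the same way, and HTA2 fell over both intervals. The H2A.X genes HTA3 and HTA5 fell to day 12, and HTA3 fell by a further 2.81 (SE 0.20) in val1 and 2.07 (SE 0.22) in WT. Of the H2A.W genes, HTA6 fell by 4.55 (SE 0.21) in val1 and 4.98 (SE 0.21) in WT to day 12. HTA7 fell too, and after day 12 rose by 0.54 (SE 0.20) in val1, a call lost without the unnumbered val1 day 12 library or val1 day 17 library b (adjusted p up to 0.0979), without scaling or with the second deposited sheet, and by 0.93 (SE 0.22) in WT. HTA12 was at 22.1 ± 0.848 at day 12 and 16.4 ± 5.01 at day 7 in val1, and at 22.6 ± 1.24 at day 12 and 24.2 ± 4.24 at day 7 in WT. The val1 rise of 0.46 was lost without val1 day 7 replicate 1 or 3 or the unnumbered val1 day 12 library (adjusted p up to 0.193) and was -0.68 without scaling.
Among the H2A.Z genes, HTA11 was listed at 0 in all 3 val1 libraries at day 17 and had 178, 246 and 189 at day 7. In WT it had 0 and 0.137 at day 17 and 226, 234 and 178 at day 7. HTA8 (chr2:16219220-16220928) fell by 4.68 (SE 0.37) in val1 and 5.35 (SE 0.37) in WT to day 12. HTA9 fell by 1.23 (SE 0.14) in val1 and 1.33 (SE 0.14) in WT, and rose by 0.91 (SE 0.14) in val1 and 0.94 (SE 0.15) in WT by day 17. At day 17 HTA9 held 86.3 of 86.8 summed H2A.Z scaled FPKM in val1 and 91 of 91.3 in WT.

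Of the 11 H2B genes, 9 fell from day 7 to day 12 in each genotype. Among all genes, 38.3% fell in val1 and 38.6% in WT. HTB2 (AT5G22880) fell by 4.52 (SE 0.26) in val1 and 5.36 (SE 0.26) in WT. HTB4 (AT5G59910) fell by 0.87 (SE 0.15) in val1 and 0.90 (SE 0.15) in WT and made up 56.4 ± 2.48% of summed H2B in val1 and 58.2 ± 1.63% in WT at day 12. After day 12, 6 H2B genes rose and 3 fell in each genotype, and HTB11, AT2G28720, AT2G37470, AT1G08170 and AT3G09480 rose in both. The other gene that rose was AT5G02570, low in every library, in val1 and HTB2 in WT. Among all genes, 75% changed in either direction in val1 and 73.1% in WT over that interval.
AT5G02570 did not exceed 0.757 scaled FPKM in any library and was listed at 0 in every library of 5 groups. It reached the 1 FPKM of the filter, before scaling, only in libraries of days 7 and 8. Its fall to day 12 was thus partly set by the filter, and the counts of genes that fell include it. Its annotation overlaps HTA12 by 522 bases on the opposite strand, and whether counting used strand is not given in the sources used here. Elsewhere, annotations on the opposite strand overlap AT1G06760 by 484 bases, HTA3 by 259 and HTB9 by 249, and their part in the levels was not tested.

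AT1G08170 (chr1:2562769-2563706, minus strand) is the most divergent H2B gene, with 30.3 to 34.7% protein identity to the other 10, and is known in the literature as the seed variant H2B.S. It was listed at 0 in every day 7 library of both genotypes and in every WT library at day 8. At day 13 it had 0.946, 0.924 and 0.518 scaled FPKM in val1 and 2.12, 6.03 and 2.08 in WT. At day 15 it had 30.0, 64.3 and 19.1 in val1 and 72.2, 102 and 38.4 in WT, and at day 17 150.3, 246 and 209 in val1 and 290.1 and 229 in WT. Every day 17 library stood above every earlier library of its genotype.
The change from day 12 to day 17 was 7.91 (SE 0.31, adjusted p = 1.29e-19) in val1 and 7.99 (SE 0.35, adjusted p = 5.33e-18) in WT, the largest of the 42 genes in each. At day 17 AT1G08170 was 41.6 ± 5.28% of summed H2B in val1 and 43.8 ± 5.55% (n = 2) in WT. The earlier rise to day 12 ended at means of 0.328 in val1 and 0.524 in WT. Its val1 call was lost without any val1 day 7 library, val1 day 12 replicate 1 or the unnumbered val1 day 12 library (adjusted p up to 0.118), without scaling, with no filter and with the numbered libraries alone, and both calls were lost with a pseudocount of 1.

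AT2G28720 (chr2:12326808-12327808), another H2B gene, also rose late. It had 39.5, 53.7 and 45.6 scaled FPKM at day 17 and 2.68, 1.18 and 1.14 at day 12 in val1, and 78.2 and 85.7 at day 17 and 2.38, 3.49 and 5.01 at day 12 in WT. The ages did not overlap, and the change was 4.49 (SE 0.31) in val1 and 4.37 (SE 0.35) in WT.
HIS1-3 (AT2G18050, chr2:7845923-7847031) encodes a short linker histone known to be induced by drought and abscisic acid. It had 6.07, 11.9 and 4.26 scaled FPKM at day 17 and 0.486, 0.137 and 0.13 at day 12 in val1, and 63.9 and 63 at day 17 and 0.546, 1.02 and 1.07 at day 12 in WT. The rise was 3.31 (SE 0.31, adjusted p = 3.53e-11) in val1 and 5.56 (SE 0.35, adjusted p = 4.18e-15) in WT. To day 12 its change was 0.50 (SE 0.31, adjusted p = 0.148) in val1 and 1.39 (SE 0.31, adjusted p = 0.000203) in WT, at levels near or below 1 scaled FPKM. With a pseudocount of 0.1 the val1 change was 1.44 and was called (adjusted p = 0.0042), and with the second deposited sheet the WT change was 0.67 and was not (adjusted p = 0.343). The other H1 genes changed less. AT1G06760 fell by 0.71 (SE 0.19) in val1 and 1.02 (SE 0.19) in WT to day 12, and AT2G30620 fell by 0.52 (SE 0.19) in val1 and 1.12 (SE 0.21) in WT after it.

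From day 12 to day 17, 15 of the 42 members rose and 15 fell in val1, and 15 rose and 13 fell in WT. Over all genes, 34.6% rose and 40.4% fell in val1 (75% in either direction), and 34.4% rose and 38.8% fell in WT (73.1% in either direction). The median of the members was -0.14 in val1 and 0.15 in WT, beside -0.08 over all genes in each. In both genotypes 13 members rose, 12 fell, and 9 fell to day 12 and then rose. Without scaling 9 rose and 20 fell in val1, and 15 rose and 11 fell in WT. All 6 members with a G-box rose in val1 over this interval and 5 of them in WT, where AT5G02570 was the exception. That gene was low in every library. In val1 it was at 0 in each day 12 library and at 0, 0.114 and 0.424 scaled FPKM at day 17. The val1 call of HTA7, another of the 6, was lost without scaling, with the second deposited sheet and when single libraries were left out. Of the 36 without a G-box, 9 rose in val1 and 10 in WT. Of the 10 members with the octamer, 9 fell from day 7 to day 12 in each genotype, as did 26 of the 32 without it. These are counts over few genes, with no test.

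**Figure D3:**
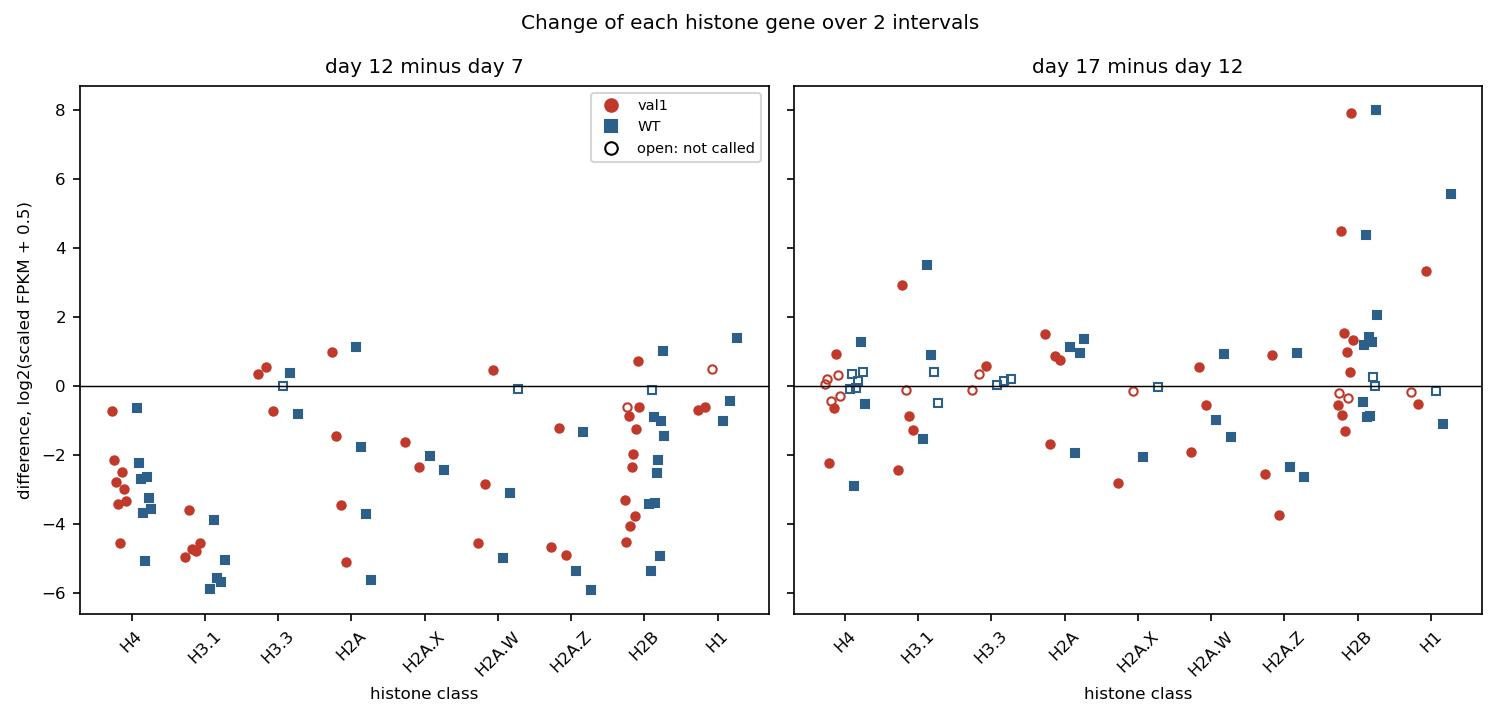
Change of each histone gene from day 7 to day 12 and from day 12 to day 17 on the log2(scaled FPKM + 0.5) scale, by class, val1 as red circles left of WT as blue squares, with open symbols for genes that were not called. H3.1 lies well below H3.3 in the first interval, and AT1G08170 is highest in the second, at 7.91 in val1 and 7.99 in WT.

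The second comparison sets val1 against WT. Averaged over the 7 ages, 3 of 42 members were higher in val1 and 6 were lower, where 18.7% of all genes were higher and 13.4% were lower, 32.1% in all. Without scaling, 2 were higher and 6 lower. The median member difference was 0.01. Of the 6 lower genes 4 were H2B, 1 was H2A and 1 was H1. In limma 0 of the 8 H4 genes were called, with 0 at an unadjusted p below 0.05, and their differences lay between -0.04 and 0.12. For the 3 H3.3 genes both counts were also 0, with differences between 0.01 and 0.04.

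**Figure D4:**
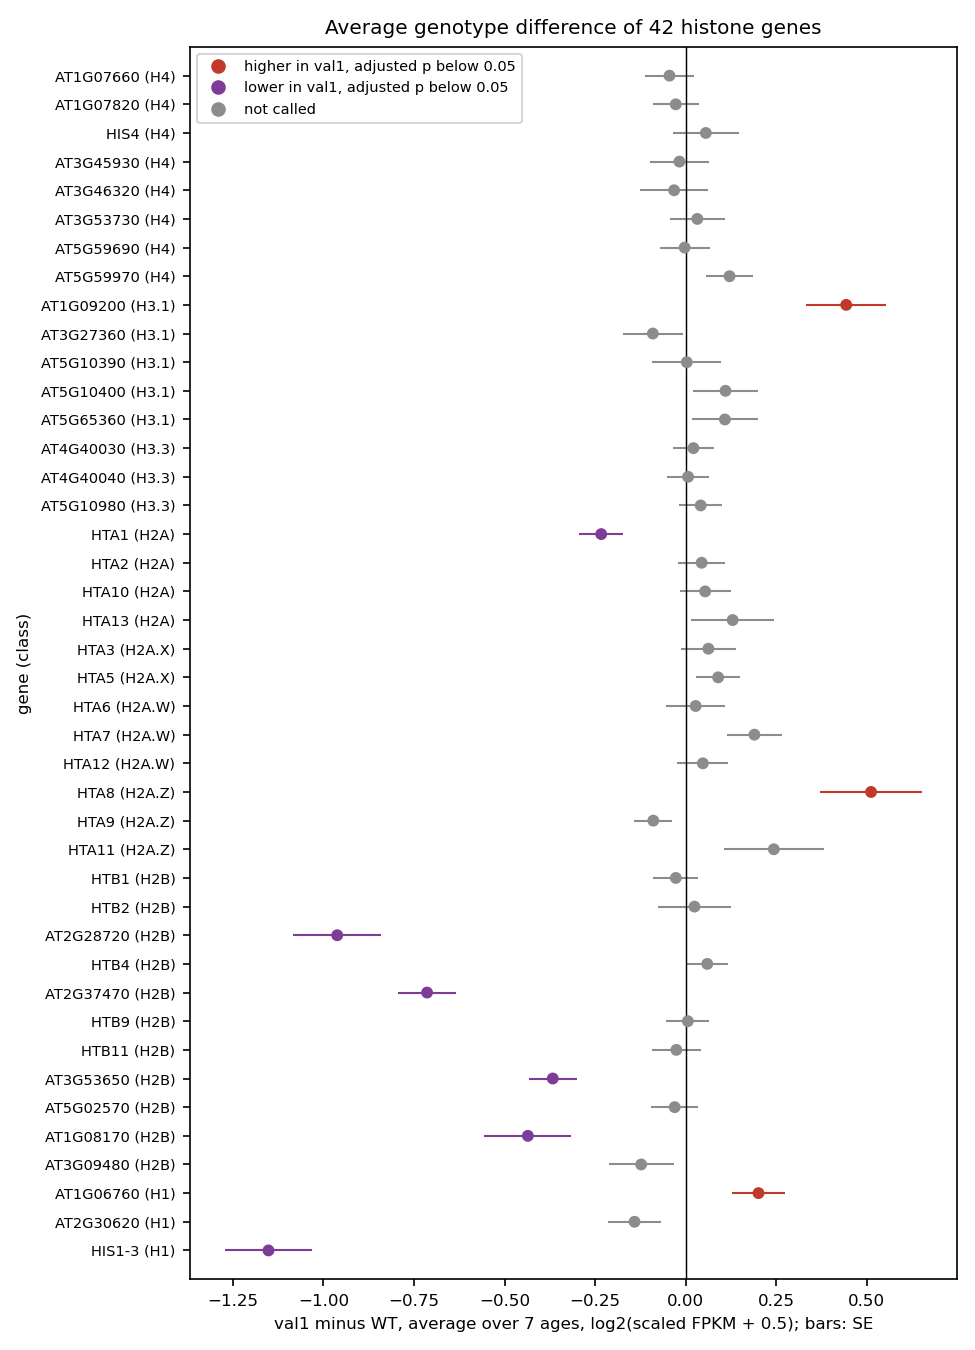
Average val1 minus WT difference over the 7 ages for each of the 42 histone genes, with SE bars, on the log2(scaled FPKM + 0.5) scale, with called genes coloured and the others grey. HIS1-3 (-1.15), AT2G28720 (-0.96) and AT2G37470 (-0.71) lie lowest and HTA8 (0.51) highest.

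HIS1-3 was the member with the largest loss in val1. At days 10, 12, 13, 15 and 17 it averaged 0.183, 0.251, 0.217, 2.26 and 7.42 scaled FPKM in val1, and 0.656, 0.877, 0.938, 12.1 and 63.4 in WT. From day 10 on, no val1 library overlapped a WT library of the same age, and at day 17 the val1 mean was 11.7% of the WT mean. The average difference was -1.15 (SE 0.12, adjusted p = 2.47e-09), that of day 15 was -2.25 (SE 0.31, adjusted p = 2.63e-06) and that of day 17 was -3.13 (SE 0.35, adjusted p = 5.84e-08). These 3 calls held without each library in turn and under each alternative run that gives them. The replicate block and the numbered libraries alone give no average and no day 17 difference. The day 13 difference of -0.98 (adjusted p = 0.026) was lost without val1 day 13 replicate 2 or 3 or WT day 13 replicate 2 (adjusted p up to 0.178), as well as with a pseudocount of 1, without scaling and with the second deposited sheet (0.0843, 0.156 and 0.349). HIS1-3 was 5.45 ± 3.53% of summed H1 at day 17 in val1 and 37.5 ± 0.959% (n = 2) in WT. The authors' deposited table gives log2 differences of -3.02 and -3.16 at day 17 for its transcripts.

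AT2G28720 had a lower mean in val1 at every age, at 69.8, 54.6, 46.5, 46, 23.6, 45.9 and 56.4% of the WT mean over the 7 ages, and its libraries overlapped at day 12 alone. The average difference was -0.96 (SE 0.12, adjusted p = 1.13e-07) and that of day 13 was -1.83 (SE 0.31, adjusted p = 6.12e-05). They held without each library in turn and under each alternative run that gives them. The day 15 difference of -1.14 was lost without val1 day 15 replicate 1 or 3 or WT day 15 replicate 2 (adjusted p up to 0.0783), and without scaling (0.0635).
AT2G37470 (chr2:15736727-15737728), an H2B gene that fell early and rose late, differed by -0.71 (SE 0.08, adjusted p = 1.3e-08) on average. At day 7 it had 61.9, 91.5 and 60.8 scaled FPKM in val1 and 97.2, 85 and 57.2 in WT, which overlap. At day 13 it had 3.24, 2.82 and 2.73 in val1 and 6.84, 10.0 and 7.81 in WT, which do not. The difference was -1.33 (SE 0.21, adjusted p = 1.61e-05) at day 13 and -1.28 (SE 0.21, adjusted p = 3.41e-05) at day 15. These and the average held without each library in turn and under each alternative run that gives them. The authors' deposited table gives log2 differences of -1.97 for AT2G28720 and -1.43 for AT2G37470 at day 13.

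AT3G53650 (chr3:19889297-19890251), an H2B gene seen mainly in young embryos, was lower in val1 at the early ages. At day 7 it had 6.77, 11.6 and 6.98 scaled FPKM in val1 and 19.8, 17 and 11.3 in WT, with 1 val1 library in the WT range. At day 8 it had 4.27, 4.61 and 5.05 in val1 and 8.73, 10.4 and 10.1 in WT, with no overlap. It was listed at 0 in every val1 library at days 13 and 17. The difference was -0.89 (SE 0.17, adjusted p = 0.00105) at day 7 and -0.99 (SE 0.17, adjusted p = 0.000219) at day 8. It was the 1 member lower on each of those days, when 1.36% and 1.25% of all genes were lower and 3.26% and 3.32% differed in either direction. Both calls were lost with a pseudocount of 0.1 (adjusted p of 0.138 and 0.0687) and with the second deposited sheet (0.222 and 0.146). The average difference of -0.37 (SE 0.07, adjusted p = 5.01e-05) was lost with that sheet too (adjusted p = 0.0557).

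AT1G08170 was lower in val1 on average, by a difference of -0.44 (SE 0.12, adjusted p = 0.00531), and at day 13, by -1.47 (SE 0.31, adjusted p = 0.000868). Both held without each library in turn and under each alternative run that gives them. The day 15 difference was -0.97 (adjusted p = 0.0283). Libraries overlapped there, and the call was lost without val1 replicate 1 or 3 or WT replicate 1 or 2 of that day, with values between -0.90 and -0.57. It was also lost with a pseudocount of 0.1, without scaling and with the second deposited sheet. At day 17 the difference was -0.38 (SE 0.35, adjusted p = 0.566).
HTA1 differed by -0.23 (SE 0.06, adjusted p = 0.00341) on average, a call that held under each alternative run that gives an average. At day 13 it had 91.4, 92.2 and 88.8 scaled FPKM in val1 and 113, 157 and 132 in WT, with no overlap, but that day's call (-0.54) was lost without val1 replicate 3 or WT replicate 2 (adjusted p up to 0.144), and without scaling (0.137).

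**Figure D5:**
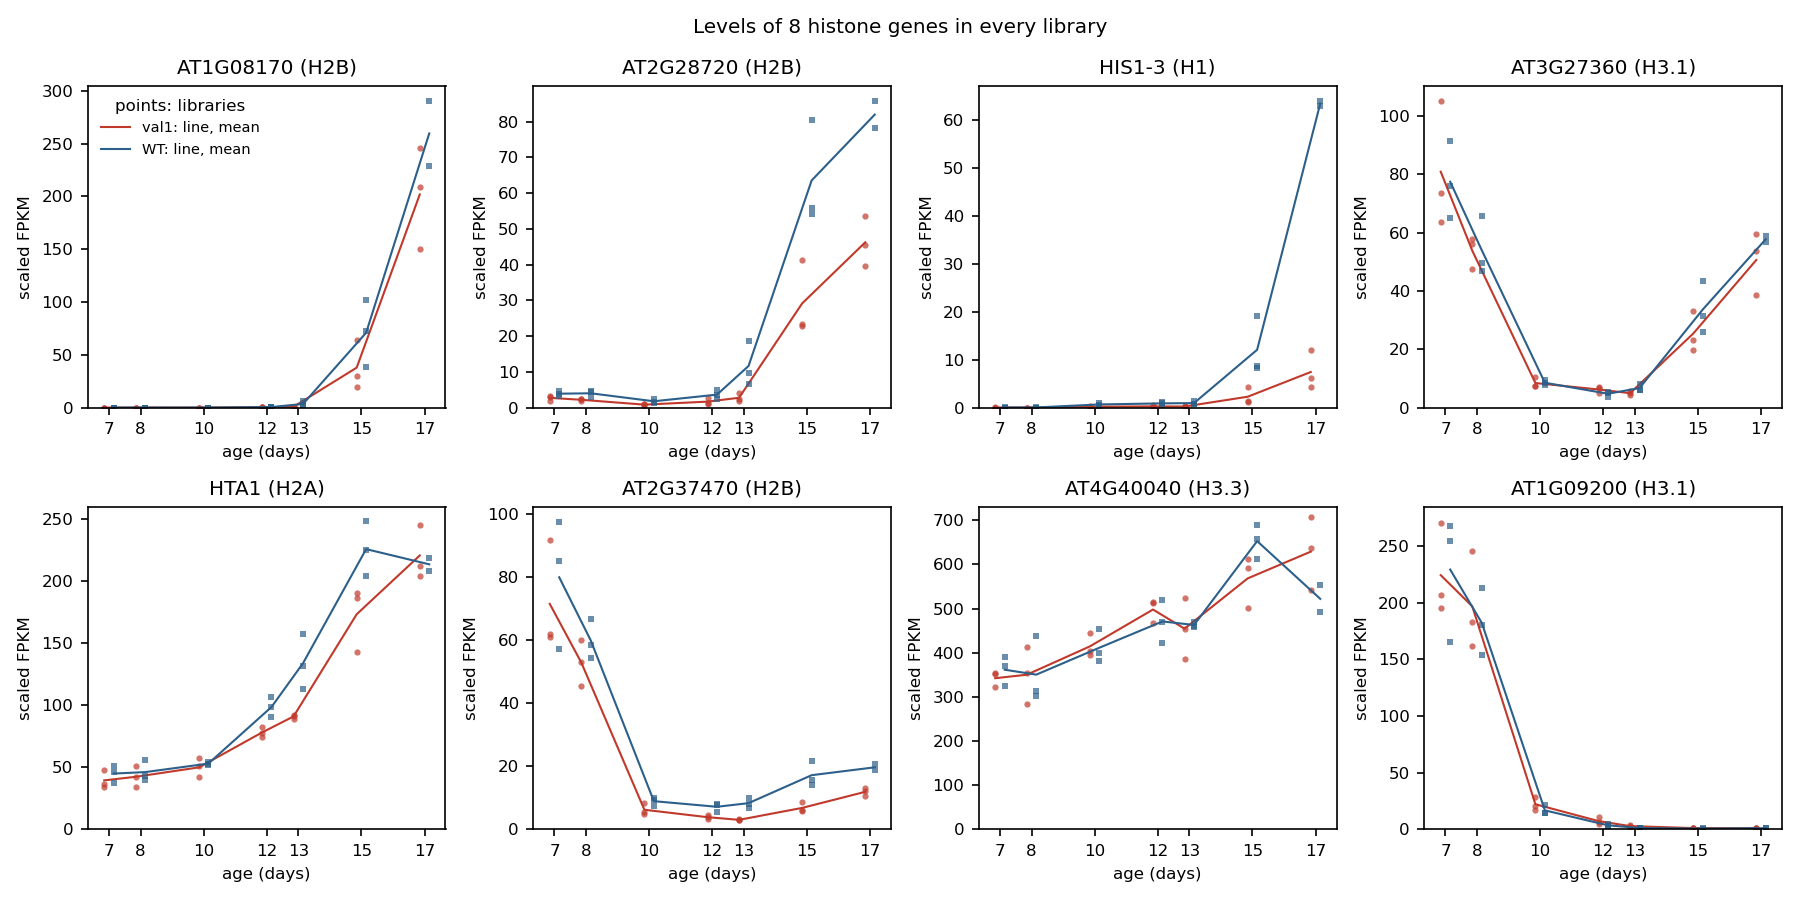
Scaled FPKM of 8 histone genes in every library against age in days, val1 as red circles and WT as blue squares, lines for group means, with vertical axes that start at 0. For HIS1-3 the val1 mean at day 17 is 7.42 and the WT mean 63.4, and for AT2G28720 they are 46.2 and 82.

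The 3 members higher in val1 on average were AT1G09200 (H3.1), HTA8 (H2A.Z) and AT1G06760 (H1). AT1G09200 differed by 0.44 (SE 0.11, adjusted p = 0.00223), a call that held under each alternative run that gives an average. Its means at days 12, 13 and 15 were 7.08, 2.64 and 0.898 scaled FPKM in val1 and 3.35, 0.909 and 0.417 in WT. HTA8 differed by 0.51 (SE 0.14, adjusted p = 0.00535) and had 1.42, 1.24 and 2.33 in val1 and 0, 0.127 and 1.07 in WT at day 15, but its average call was lost with the second deposited sheet (adjusted p = 0.188). AT1G06760 differed by 0.20 (SE 0.07, adjusted p = 0.0323). That call was lost without val1 day 12 replicate 1, val1 day 13 replicate 1, val1 day 15 replicate 2, WT day 13 replicate 1 or WT day 17 replicate 2 (adjusted p up to 0.0676), and without scaling (adjusted p = 0.0972).

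By day, 0 members were higher in val1 at days 7, 8 and 10 in limma, when 1.9, 2.08 and 3.39% of all genes were, and 2, 3 and 4 members had an unadjusted p below 0.05 in either direction. At day 10 AT3G53650 was lower, with 1.95% of all genes (5.35% in either direction), a call lost without any 1 of 5 libraries of that day, with either other pseudocount and with the second deposited sheet. At day 12, 3 members were higher and 1 lower, with 5.27% and 3.24% of all genes and 8.51% in either direction. The 3 higher were AT1G09200 (0.91), AT5G10400 (0.87) and HTB2 (0.89). Each of these calls was lost without the unnumbered val1 library, at 0.57, 0.64 and 0.63, and without WT replicate 1. Those of AT1G09200 and HTB2 were also lost without val1 replicate 3 or the unnumbered WT library. AT2G37470 (-0.82) was lost without val1 replicate 1 or the unnumbered WT library, and the calls of HTB2 and AT2G37470 were also lost without scaling. AT1G09200 was lost with a pseudocount of 0.1, with no filter and with the second deposited sheet. With the numbered libraries alone, which leave out both unnumbered libraries of that day, all 4 calls were lost, at 0.41, 0.74, 0.55 and -0.74 (adjusted p of 0.66, 0.194, 0.457 and 0.154).
At day 13, 2 members were higher and 6 lower, with 10.5% and 7.3% of all genes and 17.8% in either direction. HTA7 (H2A.W) was higher, with 7.03, 4.94 and 6.0 scaled FPKM in val1 and 2.43, 3.3 and 3.95 in WT, a difference of 0.81 (SE 0.20, adjusted p = 0.00367) that held under each alternative run. AT1G09200 (1.1) was lost without val1 replicate 1 or WT replicate 2, and AT2G30620 (-0.73) without val1 replicate 3. At day 15, 1 member was higher and 7 lower, with 11.7% and 6.05% of all genes and 17.7% in either direction. The count lower was 2 without val1 day 15 replicate 3 or WT day 15 replicate 2, and 4 without val1 day 15 replicate 1. Without scaling it was 2, with the calls of HTA10, HTB2, AT2G28720, AT1G08170 and AT3G09480 lost, and with the second deposited sheet it was 4. The HTA8 call (1.42) was lost without val1 replicate 3 or WT replicate 1, and with the second deposited sheet. At day 17, 1 was higher and 2 lower, with 9.65% and 5.82% of all genes and 15.5% in either direction. HTA12 was the higher one, at 15.2 ± 3.65 in val1 and 7.84 ± 1.06 (n = 2) in WT, a call lost without WT replicate 1 (adjusted p = 0.0675) and without scaling (0.0915). AT2G37470 (-0.71) was lost without val1 library a or c or either WT library.

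The genotype difference varied with age for 5 members, where 16.9% of all genes had such an interaction. They were HIS1-3 (adjusted p = 2.85e-05), AT3G53650 (0.000782), HTB2 (0.00806), AT2G37470 (0.0101) and HTA12 (0.0117). For AT1G08170 the adjusted p was 0.0573. The change from day 7 to day 12 differed between genotypes for 1 member, AT3G53650, by 1.16 (SE 0.24, adjusted p = 0.00387). Among all genes, 1.27% were more positive in val1 and 2.03% differed in either direction. AT3G53650 averaged 8.44 at day 7 and 0.137 at day 12 in val1, and 16 and 0.0279 in WT. It was thus near 0 at day 12 in both genotypes. Its call was lost with the second deposited sheet and with the numbered libraries alone. The change from day 12 to day 17 was more positive in val1 for 1 member and more negative for 3, where 6.16% and 4.97% of all genes were (11.1% in either direction). Without scaling the counts were 0 and 7. The difference for HIS1-3 was -2.25 (SE 0.47, adjusted p = 0.00163), a call lost with a pseudocount of 0.1 (0.106) and with the second deposited sheet (0.0706). For AT5G10400, HTB2 and HTA12 it was -1.28, -1.39 and 0.91. HTB2 averaged 10.1 at day 17 and 12.1 at day 12 in val1, and 14.4 at day 17 and 6.18 at day 12 in WT. The interval differences of HTB2 and AT5G10400 were lost without the unnumbered val1 day 12 library, at -1.14 and -1.06, that of HTB2 also without WT day 17 replicate 1 and that of AT5G10400 without WT day 17 replicate 2. The HTA12 interval difference was lost without any 1 of 6 libraries, without scaling and with the second deposited sheet, and its interaction without WT day 17 replicate 1 (adjusted p = 0.0863).

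Genes that act with histones were followed beside them. All 12 S phase replication genes, among them MCM helicase subunits, PCNA1 and the ribonucleotide reductase gene TSO2, fell to day 12 in both genotypes, where 38.3% of all genes fell in val1 and 38.6% in WT, with a median of -3.69 in val1 and -4.53 in WT. On average 7 of the 12 were higher in val1 and 0 lower, with a median of 0.23, where 18.7% of all genes were higher and 13.4% lower with a median of 0.01. TSO2 differed by 0.39 (SE 0.08), CDT1A, a replication licensing factor, by 0.37 (SE 0.07), and MCM3 by 0.37 (SE 0.07). At day 12, 8 of the 12 were higher in val1, as were 5.27% of all genes. The calls of the 3 histone members higher that day were lost without the unnumbered val1 day 12 library. For the replication genes such runs are not given here. Of 27 histone chaperone and remodeller genes, 2 were higher and 1 lower on average, with a median of 0.05, a smaller share than the 32.1% of all genes that differed in either direction. FAS2, a subunit of the CAF-1 complex that deposits H3.1, differed by 0.27 (SE 0.08), DDM1, a remodeller of heterochromatin, by 0.23 (SE 0.07), and ARP6, a subunit of the SWR1 complex that deposits H2A.Z, by -0.28 (SE 0.05). Of 5 other H3 genes 3 passed the filter, and HTR12, the centromeric H3, was higher by 0.27 (SE 0.11, adjusted p = 0.046).

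Over the 14 group means, the 5 other genes closest to AT1G08170 by Pearson correlation of log2 levels were CYP71B14, RAP2.1, AT5G53270, AT4G25580 and AT5G07360, at 0.997 to 0.999. Those closest to the mean of the 8 H4 genes were AT4G16807, LEC1, RNR2B, AT4G26960 and AT4G19130, at 0.995 each. All 14 points share the course of age, so these values describe likeness alone.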

How the data were processed

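Embryo RNA of val1 and WT was sequenced as paired reads of 75 bases, per the labels' protocols. TopHat2, StringTie and the TAIR10 build are named in the submitters' processing notes, without versions. The deposited FPKM values, made by the authors, cover 53988 transcripts. FPKM of the 52881 transcripts with class code = or j were summed per locus into 33544 genes. A second deposited sheet, named for counts, holds signal values of which 99.9997% of those above 0 are not whole, so no count test was run and the sheet served as an alternative. The third deposited sheet holds the authors' log2 differences per day, an F score and p-values of its own fit.

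Libraries were scaled by an unweighted trimmed mean of log ratios (30% of ratios and 5% of levels trimmed), and 18389 genes reached 1 FPKM in 2 or more libraries and were kept. A model of 14 group means was fitted to log2(scaled FPKM + 0.5) in limma 3.58.1 (R 4.3.3, trended prior, 27 residual degrees of freedom) and tested on simulated data. All adjusted p-values are from this limma fit, with Benjamini-Hochberg adjustment over all genes. Depth was estimated from the steps of low values, 100% of which were whole within a tolerance of 0.02. Estimates ranged from 8321306 to 51738641 assigned reads or read pairs, and low genes are the least precise. Motifs, windows and sequences came from RefSeq TAIR10.1 with Python 3.11.15 and Biopython 1.88, and coordinates are on that assembly, where all 42 loci matched.

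In each comparison the text names the member of each class with the largest change, called members of opposite sign to their class, and members at 0 in a whole group, with AT1G08170 and HIS1-3 throughout. Other lists name at most 4 genes by average difference. Members and lists were chosen with earlier results of these data known. The 4 groups at day 8 and day 12 each have 1 column marked as a replacement, and the val1 day 17 column names, read without punctuation, also spell labels of another age, so they were tied to their group alone. These 7 libraries are unnumbered here, and those of val1 day 17 are called a, b and c in the order printed. Alternatives were another pseudocount, filter, scaling, prior, class code or sheet, a replicate block, the numbered libraries alone (added after seeing the data), and leaving out each library.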

Additional observations from a re-analysis of the deposited data

Results flagged for a closer look

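The genotype difference changed with age for 5 histone genes in a test of the interaction itself (limma, 7 ages). Such an interaction was called for 16.9% of all genes tested. The adjusted p was 2.85e-05 for HIS1-3, 0.000782 for AT3G53650, 0.00806 for HTB2, 0.0101 for AT2G37470 and 0.0117 for HTA12. Those of HIS1-3 and HTB2 held without each library in turn and under each alternative run that gives an interaction. The replicate block and the numbered libraries alone give none. Without scaling that of AT2G37470 was 0.135 and that of HTA12 0.0598, and with the second deposited sheet that of AT3G53650 was 0.125.

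Over single intervals, the change of 5 genes differed between val1 and WT, 1 from day 7 to day 12 and 4 from day 12 to day 17. Among all genes tested, 2.03% and 11.1% differed over these intervals. From day 7 to day 12 the log2 change of AT3G53650 was 1.16 more positive in val1, from a lower day 7 level. From day 12 to day 17 the difference in log2 change, val1 minus WT, was -2.25 for HIS1-3, -1.39 for HTB2, -1.28 for AT5G10400 and 0.91 for HTA12. The AT3G53650 call was lost with the second deposited sheet and with the numbered libraries alone. The HIS1-3 call was lost with a pseudocount of 0.1 and with the second deposited sheet. Those of HTB2, AT5G10400 and HTA12 were lost when single libraries were left out.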

How the results depend on the processing

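There were 45 called member results in val1 against WT, the age intervals' differences and the interaction. Of these, 23 held without each library in turn and 15 under every alternative run that gives them. The replicate block and the numbered libraries alone give no average, no interaction and no day 17 difference, so results of these kinds were not tried there. Counts of members moved by over 1.5 times as follows. Without scaling, the interaction was called for 3, day 12 minus day 7 had 0 higher in val1 and 2 in WT, day 17 minus day 12 had 9 higher in val1, its difference between genotypes had 0 higher and 7 lower, and val1 minus WT had 0 higher at day 17 and 2, 0 and 2 lower at days 7, 12 and 15. With a pseudocount of 0.1, 2 were higher at day 15 and 2 at day 17, and 0, 0, 0 and 2 lower at days 7, 8, 10 and 12. With a pseudocount of 1, 0 were lower at day 10. With class code = alone, 2 were higher at day 17. With the second deposited sheet, 0 were higher at day 15 and 2 at day 17, 0, 0, 0 and 4 lower at days 7, 8, 10 and 15, and 0 more positive in val1 over either interval. With the numbered libraries alone, which hold no val1 day 17 and so give no average, no interaction and no value for val1 at day 17, day 12 minus day 7 had 2 higher in val1 and 0 more positive in val1, day 10 had 0 lower, and day 12 had 0 higher and 0 lower. The cause was not tested. Median of ratios scaling, no filter and a robust prior moved no count of members by over 1.5 times.

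Among the single results followed through the alternatives, some day 12 minus day 7 changes were reversed without scaling. They were those of HTA1 (-0.16 in val1 and -0.14 in WT), HTA12 (-0.68 in val1) and AT4G40040 (-0.91 in WT). The val1 changes of AT4G40040 and AT4G40030 were not followed singly, but no member was called as rising in val1 without scaling.

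Leaving out 1 library gave 2 to 4 members higher and 6 lower on average. By day it gave 1 to 2 lower at day 7, 0 to 1 lower at day 10, 0 to 4 higher and 0 to 3 lower at day 12, and 1 to 3 higher and 3 to 6 lower at day 13. It gave 0 to 1 higher and 2 to 9 lower at day 15, and 0 to 3 higher and 1 to 2 lower at day 17. The interaction was called for 4 to 8. Day 12 minus day 7 gave 2 to 5 higher and 34 to 36 lower in val1, and 3 to 4 higher and 34 to 35 lower in WT. Day 17 minus day 12 gave 13 to 16 higher and 12 to 17 lower in val1, and 14 to 15 higher and 12 to 13 lower in WT, and its difference 0 to 2 higher and 1 to 5 lower. Where 1 WT library was left at day 17, it was assumed to vary like the other groups.

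Of 16 same-numbered pairs of val1 and WT libraries, 15 had deviations correlated over 0.1 (range 0.0742 to 0.605), and 15 of 16 val1 libraries correlated best with their own number, a hint from the data and not the design, so the numbers were not taken to pair the samples. With a replicate block, over the 34 numbered libraries and with the same gaps, day 12 minus day 7 had 3 higher in val1 and 0 more positive in val1, day 10 had 0 lower, and day 12 had 0 higher and 0 lower. Members near 0 FPKM, such as AT5G02570 and AT3G53650 after day 10, are limited by depth.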
